A study of Mus musculus with 8 samples.

Results

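Oxidative phosphorylation transfers electrons from NADH and succinate to oxygen through complexes I to IV of the inner mitochondrial membrane, and ATP synthase, complex V, uses the resulting proton gradient to make ATP. Most subunits of these complexes are encoded in the nucleus and imported, and complexes I, III, IV and V also contain subunits encoded by mitochondrial DNA. The nuclear-encoded subunit genes were taken from the expression tables by name, as rows whose symbol begins with Ndufa, Ndufb, Ndufc, Ndufs or Ndufv and a number, with Uqcr, with Cox and a number from 4 to 8, or with Atp5, or is Sdha, Sdhb, Sdhc or Sdhd, and 13 rows with -ps in the symbol were left out. This gave 90 of 53242 genes, of which 42 belong to complex I (NADH dehydrogenase), 4 to complex II (succinate dehydrogenase), 8 to complex III (cytochrome bc1), 19 to complex IV (cytochrome c oxidase) and 17 to complex V (ATP synthase). The name rule used no measured value.

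RNA was sequenced from splenic B cells of C57BL/6 mice aged 8 to 12 weeks, 4 of each genotype. The control mice were Eif4a1+/+ CD23-cre and the 4A1 KO mice Eif4a1fl/fl CD23-cre, so both carried the Cre. Per the study, this Cre deletes floxed Eif4a1 in immature B cells of the spleen. Only the 4A1 KO mice carried floxed alleles of Eif4a1, the RNA helicase of the EIF4F translation initiation complex. All cells were activated for 24 h on irradiated CD40LB cells, fibroblast feeders that present CD40 ligand, in medium with IL-4 at 40 ng/ml, and the feeders were then removed with antibody-coated beads. Replicates 1 and 3 were males and 2 and 4 females, and replicates 1 and 2 were batch A and 3 and 4 batch B. Replicate 1 of each genotype was kept out of the tests because the study excluded these males for low viability, so 3 libraries per genotype were compared with batch and sex as covariates, and values of all 8 libraries are given. Libraries held between 31727557 and 43210858 counted reads. Eif4a1 itself was at 748 to 939 CPM (reads as a share of the library, normalized with TMM) in the control libraries and 556 to 689 in the 4A1 KO libraries, a log2 fold change of -0.44 (SE 0.05, edgeR adjusted p = 1.15e-04, exact permutation p = 0.0286 over the 8 libraries). This permutation p is the lowest that 4 libraries against 4 can give. The 10 B cell markers summed to 7018 to 8203 CPM in the 4 control libraries and 7379 to 7879 in those of 4A1 KO, although 6 of the 10 fell and 2 rose, with Fcer2a, the most abundant, among the latter (log2 fold change 0.30). The 12 fibroblast markers summed to 29.2 to 50.6 CPM in control and 24.7 to 37.0 in 4A1 KO, with Lum and Postn at 0. The 8 T cell markers summed to 15.0 to 24.99 and 10.4 to 19.6 CPM, mostly from Lck, with Cd3g at 0, and the 8 myeloid markers to 4.08 to 8.15 and 7.33 to 8.96, mostly from Adgre1, with S100a8, S100a9 and Mpo at 0. In replicates 2 to 4 alone the myeloid sums were 4.08 to 6.35 in control and 7.54 to 8.96 in 4A1 KO, without overlap, and their part in the results was not tested.

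Nuclear respiratory factor 1 (NRF1) and GABPA are transcription factors known to regulate many respiratory chain genes, and their recognition letters were looked for in the promoters, from 250 bases before to 50 bases after the RefSeq start of each gene in GRCm38.p6. A promoter was found for 69 of the 90 subunit genes, 66 of them among the genes tested below. The letters GCGCNNGCGC of NRF1, on either strand, were in 27.3% of these 66 genes, in 15.7% of all tested genes with a promoter and in 6.997% of all 27025 genes of the table. For CCGGAAG of GABPA the shares were 25.8%, 21.5% and 9.93%. The letters AAGATGGCG of YY1 were in 10.6%, 3.85% and 1.64%, and the E-box CACGTG in 9.09%, 12.2% and 8.09%. Below are stretches of 30 bases around such matches, shown because they stand before the start sites of subunit genes that fell in 4A1 KO cells, and, for Sdha and Cox6a1, of genes that did not pass the test. They were chosen after the values were seen, and capitals mark the matched letters, for GABPA on either strand. Each is written in the direction of its gene. No match of one factor shared bases with a match of another in any of the 66 genes.
Sdhd NRF1: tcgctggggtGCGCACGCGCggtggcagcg
Sdhd GABPA: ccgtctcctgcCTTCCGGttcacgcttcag
Ndufa8 NRF1: ctagagcagtGCGCTTGCGCgtcgctggag
Atp5k NRF1: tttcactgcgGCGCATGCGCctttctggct
Atp5c1 NRF1: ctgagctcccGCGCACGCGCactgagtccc
Uqcrh GABPA: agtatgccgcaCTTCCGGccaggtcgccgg
Cox6b1 GABPA: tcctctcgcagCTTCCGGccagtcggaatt
Atp5j GABPA: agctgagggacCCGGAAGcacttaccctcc
Sdha NRF1: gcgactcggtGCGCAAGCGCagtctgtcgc
Cox6a1 NRF1: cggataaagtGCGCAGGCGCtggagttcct
These stretches lie on the minus strand at chr9:50603909-50603938 and chr9:50603877-50603906 (Sdhd), chr2:36049349-36049378 (Ndufa8), chr5:108434430-108434459 (Atp5k), chr2:10080430-10080459 (Atp5c1), chr4:116075062-116075091 (Uqcrh), chr7:30626124-30626153 (Cox6b1), chr16:84835019-84835048 (Atp5j), chr13:74350231-74350260 (Sdha) and chr5:115349056-115349085 (Cox6a1) of GRCm38.p6. The matched letters begin 79 and 46 bases before the start of Sdhd, 30 before Ndufa8, 50 before Atp5k, 17 before Atp5c1, 10 before Uqcrh, 28 before Cox6b1, 61 before Atp5j, 10 before Sdha and 117 before Cox6a1. Among the subunit genes that fell, 10 of 31 (32.3%) had the NRF1 letters and 11 (35.5%) those of GABPA, against 8 of 35 (22.9%) and 6 (17.1%) of those that did not fall. The YY1 letters were found in 4 (12.9%) and 3 (8.57%) of the same groups, and the E-box in 2 (6.45%) and 4 (11.4%).

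The subunit mRNAs were abundant, with a median of 184 TPM (a share of all transcripts, corrected for length) in control replicates 2 to 4, against 19.2 for all genes with at least 1 TPM on average. More of them fell than rose in 4A1 KO cells, and by small amounts. Of 82 subunit genes with enough counts for the test, 36 (43.9%) fell and 5 (6.10%) rose at an edgeR adjusted p under 0.05, and 41 did not pass it. Over all 14218 genes tested, 26.7% fell and 26.3% rose. The median log2 fold change was -0.12 for the subunits and 0.01 for all genes, and 62 subunits had negative and 20 positive values. Among the 36 that fell the median was -0.26. With the study's additional threshold of a log2 fold change above 0.5 in size, 5 subunit genes (6.10%) were decreased and 1 (1.22%) was increased, while 13.7% and 11.6% of all genes were. Without replicate 2, 18 subunits fell, and without replicate 3, 23, all of them among the 36. Without replicate 4, 37 fell, 34 of them among the 36. The count of 5 that rose became 4 without replicate 2 and 2 without replicate 3 or 4. Of those 5 genes, 1 missed the threshold without replicate 2, 4 without replicate 3 and 3 without replicate 4. The count of 5 decreases past the fold threshold became 3 without replicate 2 or 3. Those fits had 4 libraries each. Without the replicate block 20 fell and 1 rose. Without rows annotated as pseudogenes, 35 of 79 fell and 5 rose.

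**Figure D1:**
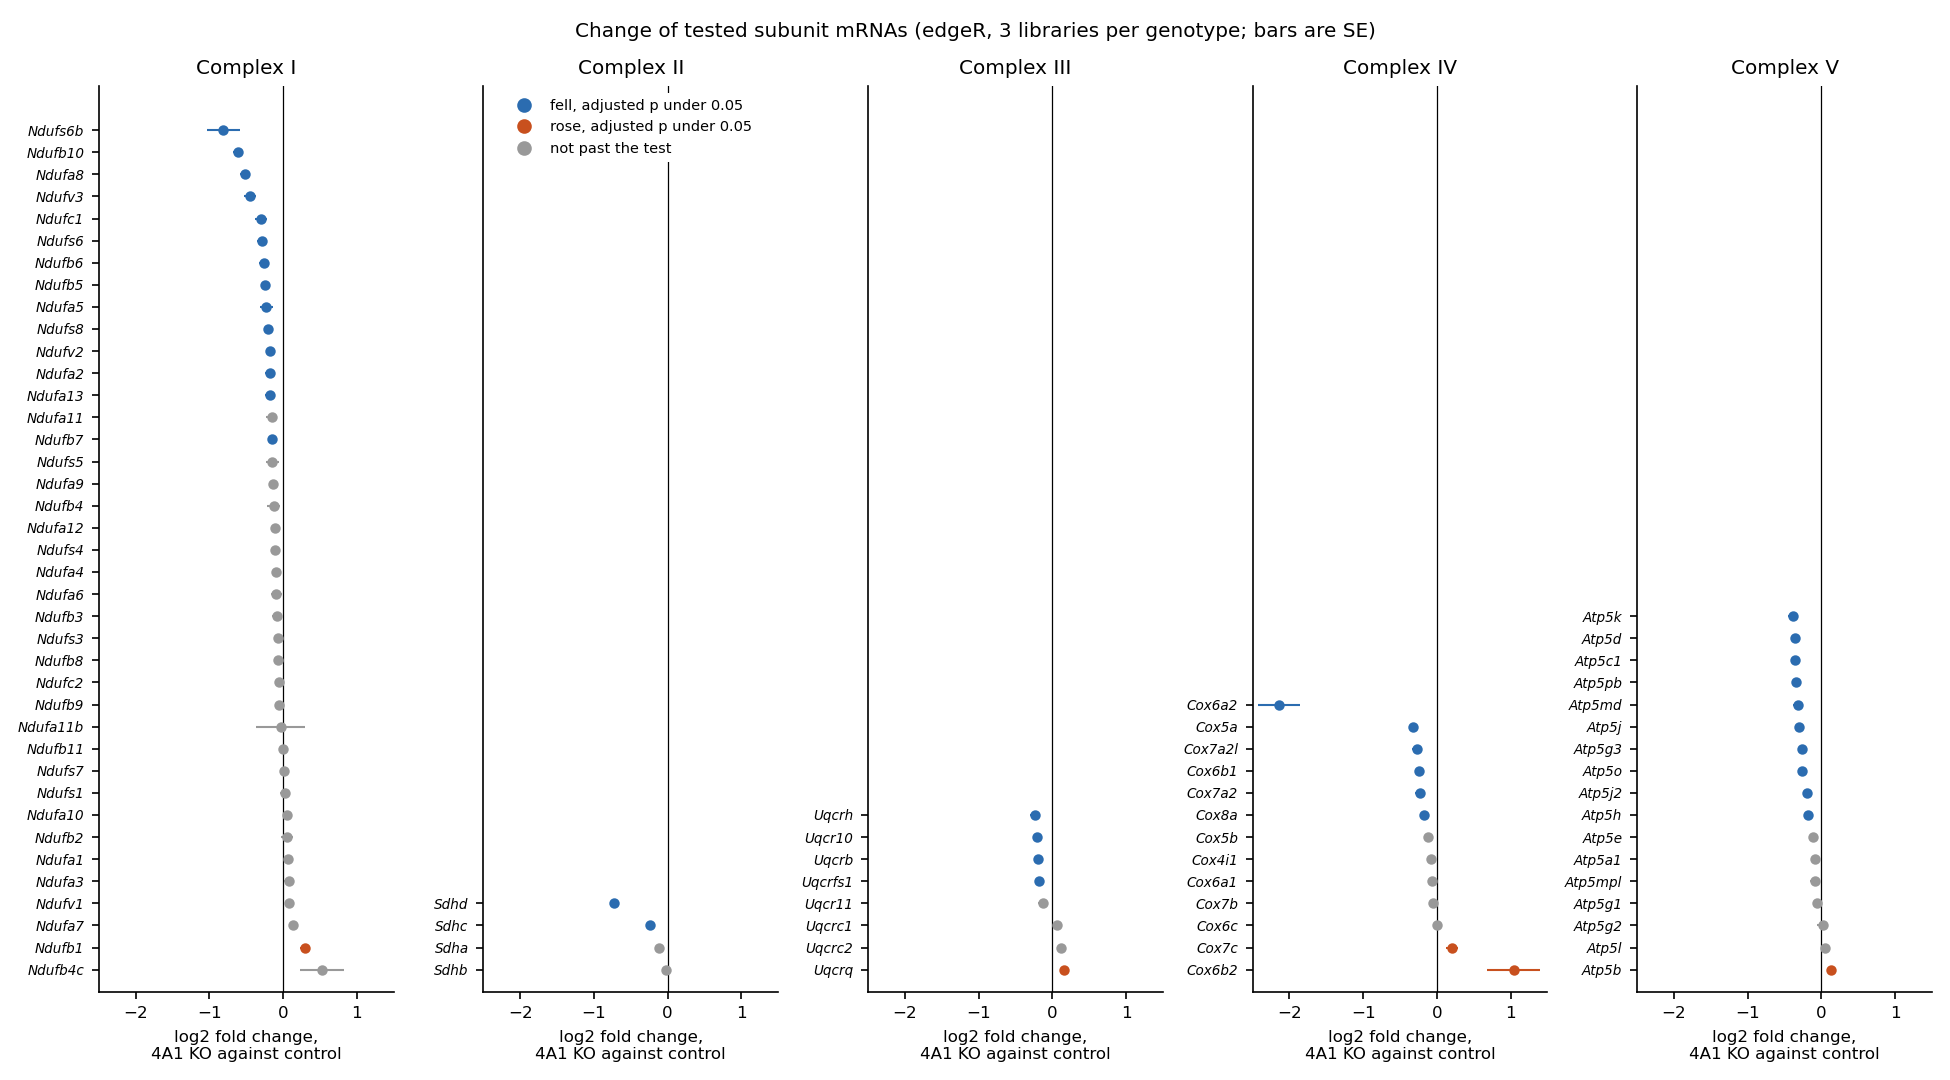
Log2 fold change of the tested subunit genes that are reported here in 4A1 KO against control, one panel per complex, with the standard error as a bar, 3 libraries per genotype; colours mark genes with an edgeR adjusted p under 0.05. In all, 62 genes lie left of 0, most within 0.5 of it, and Sdhd, Ndufb10, Ndufa8, Ndufs6b and Cox6a2 lie beyond -0.5.

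The median subunit was lower in 4A1 KO cells in each pair of same-numbered libraries. The 4A1 KO library was lower in all 3 pairs compared for 49 of the 82 genes (59.8%, against 36.3% of all genes tested) and higher in all 3 for 11 (13.4%, against 37.1%). In replicate 1, which the tests did not use, 60 of 82 (73.2%) were lower in 4A1 KO, against 50.5% of all genes tested, and the median log2 difference was -0.07, against -0.18, -0.16 and -0.05 in replicates 2, 3 and 4. Over all 8 libraries every 4A1 KO value was below every control value for 21 subunit genes (25.6%), against 19.5% of all genes, and above for 3 (3.66%), against 17.3%. The summed TPM of all 90 genes was 19022 ± 1064 (SD, n = 3) in control and 17478 ± 539 in 4A1 KO, and the change within pairs 1 to 4 was -7.51%, -11.01%, -8.52% and -4.51%. TPM and CPM are shares of a library, so these values do not give the amount of mRNA per cell, and fewer cells of a type and less RNA per cell cannot be told apart. In the same libraries all 12 proliferation genes fell, with a median log2 fold change of -2.18, and their part in the change of the subunits was not tested.

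The deposited TPM, which come from a separate quantification of the same reads, were tested with limma. There 27 of 83 subunit genes fell and 2 rose, with backgrounds of 24.9% and 22.3% over all genes, and the same 27 and 2 also fell and rose in the counts. Without replicate 2, 3 or 4 the count of decreases was 8, 7 or 14. The sign was the same for 79 of the 82 genes measured both ways. The median difference of log2(TPM + 1) was -0.13.

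Complex II oxidises succinate to fumarate and passes the electrons to ubiquinone, and it alone has no mitochondrially encoded subunit. Its summed TPM was 665 ± 39.1 (SD, n = 3) in control and 549.97 ± 29.1 in 4A1 KO, a change of -17.3%. Without Sdhd the sum was 428 ± 33.4 TPM in control and 407 ± 18.3 in 4A1 KO, a change of -4.86%. SDHA, the flavoprotein, and SDHB, the iron-sulfur protein, form the catalytic head, and SDHC and SDHD anchor it in the membrane. Sdhd mRNA was at 236, 244, 233 and 235 TPM in replicates 1 to 4 of control, against 142, 148, 130.0 and 150.4 TPM in those of 4A1 KO, the order used for all values below. The genotypes did not overlap, and the highest 4A1 KO library was far below the lowest control. Sdhd fell by 39.5% in the counts (log2 fold change -0.73, SE 0.06, edgeR adjusted p = 2.23e-05). Sdhd stayed past the test under every alternative of the counts. The gene lies at chromosome 9, 50507642 to 50515195, minus strand, in GRCm39.

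The genes of the catalytic head did not pass the test. Sdhb was at 173, 183, 170.3 and 174 TPM in controls and at 179, 176, 165 and 171 in 4A1 KO libraries, which overlapped (log2 fold change -0.03, SE 0.05, adjusted p = 0.676). Sdha was at 172, 210.3, 181 and 188 TPM against 165, 181, 173 and 180.5 (log2 fold change -0.11, SE 0.05, adjusted p = 0.0907). In counts Sdhc fell by 15.4% (log2 fold change -0.24, SE 0.06, adjusted p = 0.00711), but its TPM were 70.5, 72.5, 49.3 and 56.1 against 54.1, 63.8, 48.1 and 63.1, which overlapped, and the log2(TPM + 1) difference was -0.02 (limma adjusted p = 0.887). Without replicate 2 the counts of Sdhc also missed the threshold (adjusted p = 0.0613). The 2 quantifications thus differed for this gene, and the cause was not tested.

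Sdhd shares its start region with Timm8b, which is transcribed from the opposite strand and encodes a chaperone of mitochondrial protein import. Timm8b was at 64.4 to 78.3 TPM in controls and 63.5 to 80.3 in 4A1 KO libraries (log2 fold change -0.03, SE 0.09, adjusted p = 0.825). Among 12 subunit genes with such a tested neighbour starting within 1000 bases on the other strand, other pairs also differed. Ndufv3 fell (-0.45) and its neighbour Wdr4 rose (0.26), and Uqcrh fell (-0.24) and Lrrc41 rose (0.22). Uqcr10 and Zmat5 both fell (-0.20 and -0.41), as did Ndufs6 and Mrpl36 (-0.29 and -0.16). Differences within a pair were not tested.

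**Figure D2:**
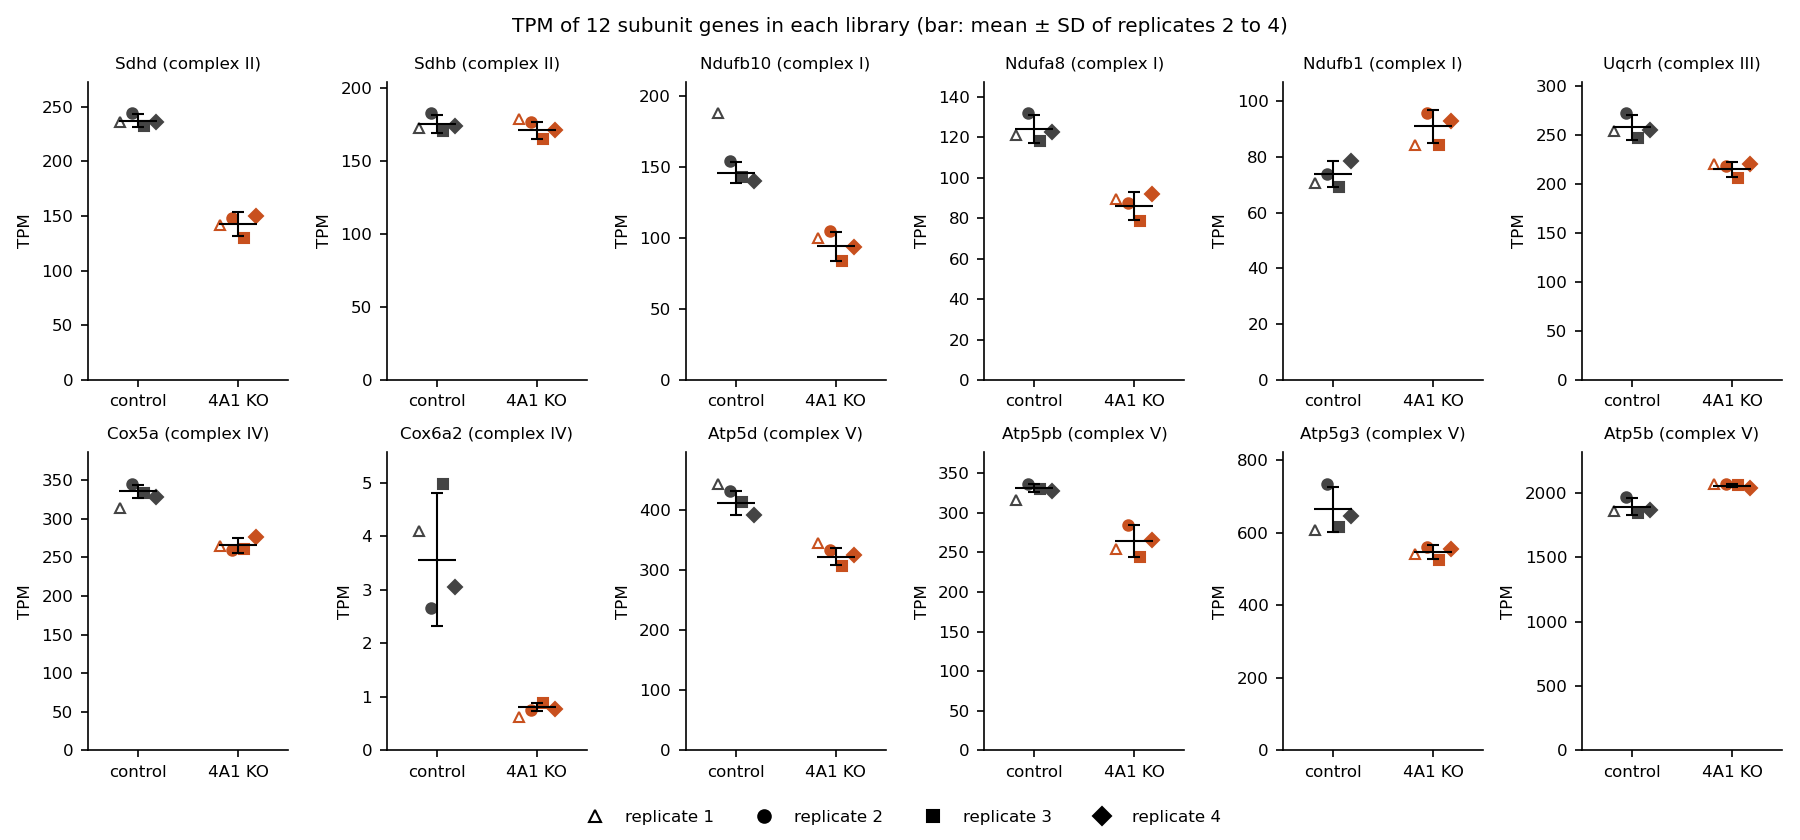
TPM of 12 subunit genes in each library, by genotype; the symbol shape gives the replicate number, open triangles are replicate 1, which was left out of the tests, and the bar is the mean ± SD of replicates 2 to 4. Sdhd, Ndufb10, Ndufa8 and Cox5a are lower in every 4A1 KO library than in any control, Sdhb overlaps, and Ndufb1 and Atp5b are higher.

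Complex I passes electrons from NADH to ubiquinone and pumps protons, and its core of nuclear-encoded redox subunits is surrounded by accessory subunits. Of 40 genes tested, 14 (35.0%) fell and 1 (2.5%) rose, against 26.7% and 26.3% of all genes tested, with a median log2 fold change of -0.10. Of the 7 core subunits 2 (28.6%) fell, a share near that of all genes. These were Ndufv2 (-0.18) and Ndufs8 (-0.21), both carriers of iron-sulfur clusters, and the median over the 7 was 0.00. Both missed the threshold without replicate 2, without replicate 3 and without the replicate block. The other core genes lay between -0.07 and 0.08 and did not pass the test. Among them Ndufs1, an iron-sulfur subunit, was at 77.9, 95.2, 80.7 and 90.9 TPM in controls and 80.5, 83.0, 92.1 and 96.1 in 4A1 KO libraries. Of 33 accessory genes tested, 12 (36.4%) fell and 1 rose, with a median of -0.11. The split into core and accessory subunits was made after the values were seen, and core and accessory genes were not tested against each other.

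The accessory subunits included the largest decreases of complex I. Ndufb10, a subunit of the membrane arm, was at 188, 154, 143 and 140.1 TPM in controls and 99.8, 104.8, 84.1 and 93.7 in 4A1 KO libraries. Control 1 was the highest of them and every control exceeded every 4A1 KO library. Ndufb10 fell by 34.7% (log2 fold change -0.62, SE 0.07, edgeR adjusted p = 9.52e-05). Ndufa8, also of the membrane arm, was at 121, 132, 118 and 123 TPM against 89.3, 87.8, 78.7 and 92.3, again without overlap, and fell by 30.2% (-0.52, SE 0.06, adjusted p = 2.02e-04). Ndufv3, a small subunit near the NADH site, was at 85.8, 86.2, 72.6 and 61.1 TPM against 56.9, 55.7, 50.0 and 56.0 and fell by 26.9% (-0.45, SE 0.08, adjusted p = 0.00178). The batch B controls of Ndufv3 were closer to the 4A1 KO libraries than those of batch A were. Smaller decreases, between -0.15 and -0.30, were found for Ndufc1, Ndufs6, Ndufb6, Ndufb5, Ndufa5, Ndufa2, Ndufa13 and Ndufb7. Ndufs6 and Ndufb5 kept the call under every alternative of the counts. Ndufb6 missed the threshold without replicate 2 (adjusted p = 0.0823) and Ndufc1 without replicate 3 (0.0810) or without the replicate block (0.0897). Ndufa5, Ndufa2, Ndufa13 and Ndufb7 missed it under DESeq2, upper-quartile scaling, no filter on low counts, no replicate block and the omission of replicate 2. Without replicate 3 the last 3 of these missed it as well, and Ndufa5 did so without replicate 4 and with all 8 libraries (adjusted p = 0.0503). In TPM, limma gave Ndufa2 and Ndufa13 adjusted p-values of 0.0653 and 0.0650.

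Ndufb1, an accessory subunit of the membrane arm, was the single gene of complex I that rose. It was at 70.6, 73.9, 69.1 and 78.6 TPM in controls and 84.2, 95.6, 84.4 and 93.0 in 4A1 KO libraries, without overlap, and rose by 22.8% (log2 fold change 0.30, SE 0.07, edgeR adjusted p = 0.00581). Ndufa4, now known as a subunit of complex IV and placed in complex I by its name, was the most abundant gene of this group at 318 TPM (mean of 3 controls) and did not pass the test (-0.10, SE 0.05, adjusted p = 0.142). Its relative Ndufa4l2 was close to 0, with 1 read in all 8 libraries. Ndufs6b, with the largest negative value of complex I (-0.81, SE 0.22, adjusted p = 0.0142), is annotated as a processed pseudogene 96.6% identical to Ndufs6 and had 26 to 65 reads per library. Without replicate 2 or 3 it did not pass (adjusted p = 0.0617 and 0.0737), nor under DESeq2 (adjusted p = 0.146), where the log2 fold change with shrinkage was -0.42, inside the fold threshold. Ndufab1, the acyl carrier protein of complex I, is outside the name rule and fell (-0.33, SE 0.07, adjusted p = 0.00390).

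Complex III transfers electrons from ubiquinol to cytochrome c. Of its 8 genes, 4 (50.0%) fell and 1 (12.5%) rose, against 26.7% and 26.3% of all genes tested, with a median log2 fold change of -0.15. Uqcrh, the hinge protein that helps dock cytochrome c1, was at 254, 272, 247 and 255 TPM in controls and 220.3, 218, 205 and 220.5 in 4A1 KO libraries, without overlap (-0.24, SE 0.06, edgeR adjusted p = 0.00693). Uqcrfs1, the Rieske iron-sulfur protein, was at 180.0, 190.1, 186 and 191 TPM against 164, 164, 165 and 168 (-0.18, SE 0.05, adjusted p = 0.0109). Both groups were tight here in replicates 2 to 4, with an SD under 3 TPM. Small structural subunits Uqcrb (-0.19) and Uqcr10 (-0.20) fell as well. The core proteins, which face the matrix, had positive values. Uqcrc1, the most abundant gene at 392 TPM, had a log2 fold change of 0.06 (adjusted p = 0.316) and Uqcrc2 one of 0.12 (adjusted p = 0.0594). Uqcrc2 was at 262, 275, 287 and 281 TPM in controls and 279, 309, 295 and 306 in 4A1 KO libraries. Uqcrq, a small membrane subunit, rose in the counts (0.16, SE 0.05, adjusted p = 0.0360), but its TPM of 257, 250.04, 222 and 206 against 249.95, 255, 232 and 237 overlapped (limma adjusted p = 0.280). Uqcr11, the smallest structural subunit, was lowest in level, at 133 TPM in controls (-0.12, adjusted p = 0.155). Without replicate 2, Uqcrh (adjusted p = 0.0565), Uqcrfs1 (0.0644), Uqcrb (0.0801) and Uqcr10 (0.140) missed the threshold, as did Uqcrfs1 (0.0549) and Uqcrb (0.0656) without replicate 3 and Uqcrb without replicate 4 (0.0523). Uqcrq missed it without replicate 3 (0.0897) or 4 (0.163), without the replicate block (0.259) and under DESeq2 (0.0683). Cyc1, the cytochrome c1 of this complex, lies outside the name rule and had a log2 fold change of -0.06 (adjusted p = 0.284).

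Complex IV reduces oxygen to water. Its nuclear subunits surround a catalytic core encoded by mitochondrial DNA and several exist in pairs, one found in most tissues and one restricted to muscle, testis or other tissues. Of 13 genes tested, 6 (46.2%) fell and 2 (15.4%) rose, against 26.7% and 26.3% of all genes tested, with a median log2 fold change of -0.114, which was -0.0606 without replicate 2 and -0.174 without replicate 4. Cox5a, a subunit on the matrix side, was at 314, 345, 333 and 328 TPM in controls and 265, 259, 261 and 277 in 4A1 KO libraries. The lowest control exceeded the highest 4A1 KO library, and Cox5a fell by 20.03% (log2 fold change -0.32, SE 0.05, edgeR adjusted p = 0.00110). Cox4i1, the most abundant of complex IV at 803 TPM, did not pass the test (-0.08, SE 0.05, adjusted p = 0.201), nor did Cox5b, the zinc-binding subunit (-0.11, adjusted p = 0.133). Cox6b1, which faces the intermembrane space, was at 451, 454, 384 and 383 TPM against 353, 339, 330.1 and 347 and fell (-0.24, SE 0.06, adjusted p = 0.00772). Cox7a2l was at 136, 152, 127 and 125 TPM against 114, 121, 101 and 109 and fell (-0.27, SE 0.06, adjusted p = 0.00327). Cox7a2 (-0.23) and Cox8a (-0.18), both in the membrane part, fell too. Cox7c, another membrane subunit, was at 134, 122, 125 and 125 TPM against 150.1, 139, 141 and 131 and rose in the counts (0.21, SE 0.07, adjusted p = 0.0443).

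The isoform pairs showed which forms these B cells express. Cox4i2, Cox7b2, Cox8b and Cox8c had between 0 and 2 reads in any library, and Cox7a1, the muscle form of Cox7a2, had at most 5. These genes, with Ndufa4l2, Ndufb11b and Cox6c2, make up the 8 subunit genes with too few reads to test. Cox6a1 was at 399.8 to 483 TPM in controls (-0.06, SE 0.05, adjusted p = 0.374). Cox6a2, its heart and muscle form, was at 4.10, 2.66, 4.98 and 3.06 TPM in controls and 0.632, 0.752, 0.891 and 0.778 in 4A1 KO libraries. It fell by 77.3% (log2 fold change -2.14, SE 0.28, edgeR adjusted p = 2.93e-04), from 39 to 75 reads in control to 7 to 13 in 4A1 KO libraries, without overlap. Cox6b2, the testis form of Cox6b1, had 6 to 15 reads in control and 15 to 24 in 4A1 KO libraries, which meet at 15, and rose (1.04, SE 0.36, adjusted p = 0.0347). At this depth the call on Cox6b2 depended on the test, since DESeq2 gave an adjusted p of 0.282, and it missed the threshold without replicate 3 (0.114) or 4 (0.156). Cox6b1 missed the threshold without replicate 2 (0.0688), Cox7a2 and Cox8a without replicate 2 (0.0656 and 0.0634) or 3 (0.152 and 0.110), and Cox7c without replicate 2 (0.168) or 3 (0.174). Cox7c also missed it under DESeq2 (0.133), with no filter on low counts (0.0676), without the replicate block (0.135) and in TPM (limma adjusted p = 0.112). Of the other pair, Cox7b, at 188 TPM on average in controls, did not pass (-0.05, adjusted p = 0.587).

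Complex V consists of the F1 head, which makes ATP, a ring of c subunits turned by protons, a peripheral stalk that holds the head still, and small subunits at the membrane base. Of its 17 genes, 10 (58.8%) fell and 1 (5.88%) rose, against 26.7% and 26.3% of all genes tested, with a median log2 fold change of -0.19. The 4 genes of the peripheral stalk fell, with a median of -0.28, but 1 of them, Atp5h, did not pass in every fit. Of these, Atp5pb, the b subunit, was at 315, 336, 329.6 and 327 TPM in controls and 254, 284, 244 and 265 in 4A1 KO libraries (-0.34, SE 0.05, edgeR adjusted p = 3.36e-04). Atp5j, or F6, was at 234, 250.4, 222 and 210.0 TPM against 189, 191, 176 and 184 (-0.30, SE 0.06, adjusted p = 0.00233). Atp5o, which joins the stalk to the head, had 418, 436, 401 and 380.5 TPM against 331, 343, 323 and 335 (-0.26, SE 0.05, adjusted p = 0.00254). None of these 3 genes overlapped between the genotypes. Atp5h, the d subunit, fell by 12.0% (-0.18, SE 0.05, adjusted p = 0.0119), and 20.2% as many reads as its own were listed for near-identical pseudogenes. It missed the threshold without replicate 2 (0.0703), without replicate 3 (0.0668) and without the replicate block (0.0848). The grouping by parts of the enzyme was made after the values were seen.

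The F1 head was divided. Atp5b, the catalytic beta subunit, was the most abundant of all 90 genes, and it rose by 9.31%, from 1858, 1965, 1844 and 1862 TPM in controls to 2067, 2065, 2059 and 2039 (0.13, SE 0.04, edgeR adjusted p = 0.0292). The libraries did not overlap, but the call was lost without replicate 3 (0.103) or 4 (0.0690), and in TPM limma gave an adjusted p of 0.155. Atp5a1, the alpha subunit that alternates with it in the head, was at 1089, 1156, 1072 and 1072 TPM against 1027, 1017, 1000.2 and 1011 (-0.09, SE 0.04, adjusted p = 0.109). The alpha and beta genes thus lay on opposite sides of 0 in counts. Of the central rotor subunits, Atp5c1 and Atp5d fell. Atp5c1, the gamma subunit, was at 330.4, 342, 316 and 352 TPM against 247, 274, 233 and 278 (-0.36, SE 0.05, adjusted p = 3.60e-04), and Atp5d, the delta subunit, at 442, 431, 413 and 391 against 345, 333, 306 and 325 (-0.36, SE 0.05, adjusted p = 5.53e-04). Neither overlapped between the genotypes. Atp5e, the epsilon subunit, did not pass (-0.11, adjusted p = 0.0990).

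The c ring is made of a single mature protein encoded by 3 genes. Atp5g3, the most abundant, was at 607, 735, 615 and 645 TPM in controls and 542, 561, 525 and 556 in 4A1 KO libraries and fell (log2 fold change -0.27, SE 0.05, edgeR adjusted p = 0.00243). Atp5g1 had a log2 fold change of -0.06 (SE 0.06, adjusted p = 0.422) and Atp5g2 one of 0.02 (SE 0.07, adjusted p = 0.864), and the sign of Atp5g2 changed with all 8 libraries or without replicate 2 or 4. Together the 3 genes gave 1233 ± 76.4 TPM (SD, n = 3) in control and 1125 ± 36.0 in 4A1 KO, a change of -8.74%. At the membrane base, Atp5k (subunit e) was at 174, 183, 175 and 168 TPM against 128, 131, 126 and 137 and fell by 23.5% (-0.39, SE 0.07, adjusted p = 0.00169). Atp5md (-0.32) and Atp5j2 (-0.19), subunits of the dimer-forming base, fell, whereas Atp5mpl (-0.08) and Atp5l (0.05), the least abundant of complex V, did not pass the test. Atp5j2 missed the threshold without replicate 2 (0.132), without replicate 3 (0.0987), without the replicate block (0.122) and in TPM (limma adjusted p = 0.0617).

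**Figure D3:**
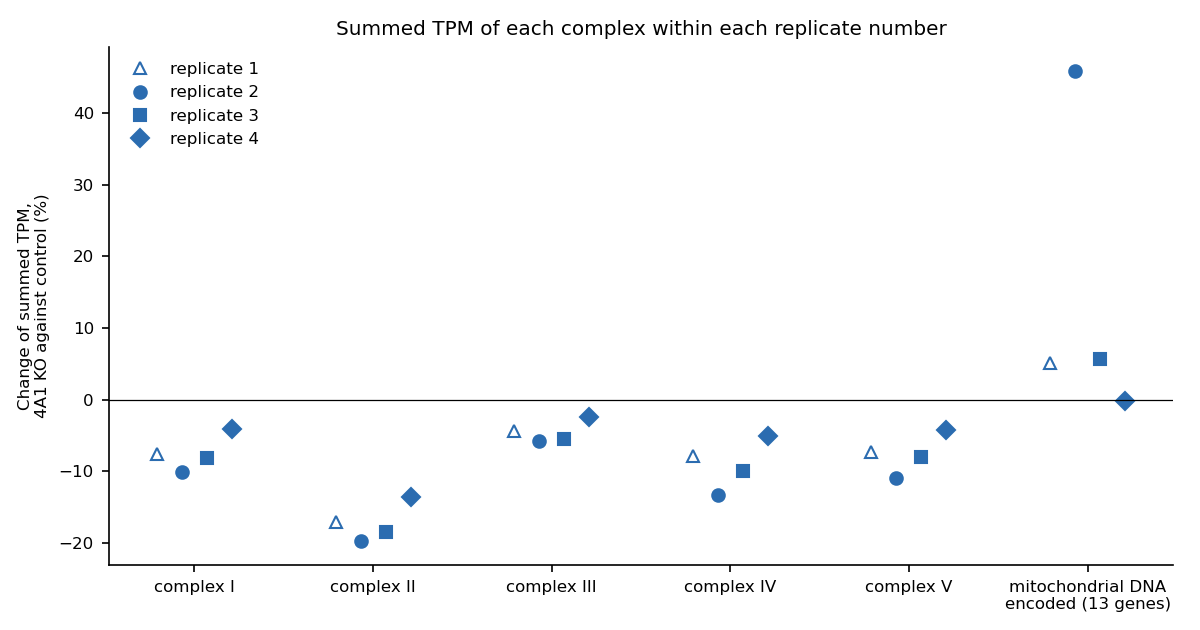
Change of the summed TPM of each complex, in percent of the control library with the same replicate number, and of the 13 subunits encoded by mitochondrial DNA; each symbol is 1 pair and open triangles are replicate 1. All pairs of the nuclear complexes lie below 0, complex II between -13.6% and -19.8%, and the mitochondrial genes range from -0.209% to 45.9%.

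Of the 13 subunits encoded by mitochondrial DNA, 0 fell by edgeR, also 0 at an unadjusted p under 0.05 and 0 by DESeq2, and 3 (23.1%) rose, against 26.7% and 26.3% of all genes tested. Those that rose were mt-Co1, the core oxidase (0.43), mt-Nd5, a proton-pumping subunit of complex I (0.33), and mt-Cytb, cytochrome b (0.26). The count table and the TPM differed widely for 7 of these genes. The genes mt-Nd3, mt-Nd4l, mt-Nd6, mt-Co2, mt-Co3, mt-Atp6 and mt-Atp8 had 0.635 to 28.7 CPM in any library but 366.95 to 2623 TPM, whereas the other 6 had 535 to 4499 CPM. The count test thus rested on far fewer reads for these 7 than for the other 6. Of the 7, mt-Nd6 had the most, at 13.2 to 28.7 CPM. The cause was not tested. In TPM 0 of the 13 passed the test (lowest limma adjusted p = 0.0577), and mt-Co1 and mt-Nd5, both higher in 4A1 KO, did at an unadjusted p under 0.05. The summed TPM of the 13 was 26096, 19449, 28944 and 32753 in replicates 1 to 4 of control, against 27434, 28380, 30566 and 32685 in those of 4A1 KO, so the groups overlapped and control 2 was lowest. The change within pairs was 5.12%, 45.9%, 5.61% and -0.209%. Without replicate 2, 1 of the 13 fell and 1 rose, without replicate 4, 5 rose, and with all 8 libraries 1 fell and 2 rose. Without the replicate block 0 fell and 0 rose.

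Assembly factors bring the subunits and cofactors together without being part of the finished complexes. Of 59 tested, 28 (47.5%) fell and 5 (8.47%) rose, against 26.7% and 26.3% of all genes tested, with a median log2 fold change of -0.18, and 18 fell without replicate 2 and 16 without replicate 3. By complex, 10 of 17 fell for complex I, 1 of 4 for II (25%, near the share of all genes), 4 of 6 for III, 11 of 27 for IV and 2 of 5 for V. Lyrm7, which guides the Rieske protein into complex III, was at 2.66, 3.63, 4.33 and 3.61 TPM in controls and 0.869, 2.19, 2.17 and 1.46 in 4A1 KO libraries (-1.67, SE 0.16, edgeR adjusted p = 5.09e-05). Cmc2, an assembly factor of complex IV, was at 16.1, 21.2, 18.6 and 17.6 TPM against 7.01, 8.90, 5.97 and 10.8 (-1.13, SE 0.12, adjusted p = 9.87e-05). Ndufaf7, which methylates a complex I subunit, was at 30.9, 33.6, 27.6 and 33.2 TPM against 19.1, 20.5, 18.2 and 18.3 (-0.66, SE 0.08). None of these 3 overlapped between genotypes. Sdhaf2, which attaches FAD to SDHA, fell (-0.51, SE 0.06, adjusted p = 1.35e-04), as did Tmem242 of complex V (-0.55, SE 0.06, adjusted p = 1.06e-04). Ttc19, which clears fragments of the Rieske protein, rose (0.74, SE 0.12, adjusted p = 7.98e-04), and so did Tmem186, a factor of complex I (0.54, SE 0.09).

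Enzymes of the TCA cycle, which deliver NADH and, through complex II, electrons of succinate, were examined without the complex II genes. Of 13, 9 (69.2%) fell and 0 rose in edgeR, against 26.7% and 26.3% of all genes tested (0 rose at an unadjusted p under 0.05, and 0 by DESeq2), with a median log2 fold change of -0.17, and 5 fell without replicate 2 or without replicate 3. Ogdh, of the 2-oxoglutarate dehydrogenase complex, was at 149, 169.5, 169 and 175 TPM in controls and 99.4, 116, 128 and 144 in 4A1 KO libraries (-0.42, SE 0.06, edgeR adjusted p = 3.89e-04). Fh1, fumarase, was at 99.8, 116, 114 and 121 TPM against 72.4, 85.0, 81.2 and 97.5 (-0.40, SE 0.06, adjusted p = 3.63e-04). Idh3a, an isocitrate dehydrogenase subunit, fell as well (-0.35, SE 0.05, adjusted p = 4.36e-04). Of 17 genes for carriers of electrons and adenine nucleotides, 6 (35.3%) fell and 1 (5.88%) rose, against the same shares of all genes. Slc25a4, an ADP/ATP carrier, fell (-0.39, SE 0.05, adjusted p = 2.47e-04), as did Pdss2 of ubiquinone synthesis (-0.53, SE 0.09), and Coq2 of the same pathway rose (0.49, SE 0.06).

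Of 13 genes for factors of mitochondrial biogenesis, 2 (15.4%) fell and 2 (15.4%) rose, both below the 26.7% and 26.3% of all genes tested, and the median log2 fold change was 0.10. The log2 fold change was positive for 9 and negative for 4, with 7 higher and 2 lower in 4A1 KO in all 3 pairs, where 37.1% and 36.3% of all genes were. The number that rose depended on the setting, with 5 under upper-quartile scaling or without replicate 4, 4 with all 8 libraries and 1 under DESeq2, no filter on low counts, without the replicate block or without replicate 2 or 3. Nrf1 (0.13, adjusted p = 0.0861) and Gabpa (0.10, adjusted p = 0.118), which encode the factors whose letters are shown in the promoters above, did not pass the test. Pprc1, a coactivator of the PGC-1 family, was at 99.0, 72.4, 92.8 and 88.2 TPM in controls and 132, 118, 148 and 127 in 4A1 KO libraries and rose (0.62, SE 0.06, edgeR adjusted p = 3.94e-05). Ppargc1b, of the same family, was at 5.25, 6.21, 5.95 and 8.04 TPM against 3.36, 4.58, 4.03 and 5.17 and fell (-0.58, SE 0.09, adjusted p = 8.00e-04). Tfb1m fell (-0.34, edgeR adjusted p = 0.0148). Gabpb1, the partner of GABPA, rose (0.14), with an edgeR adjusted p of 0.0458, close to the threshold.

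**Figure D4:**
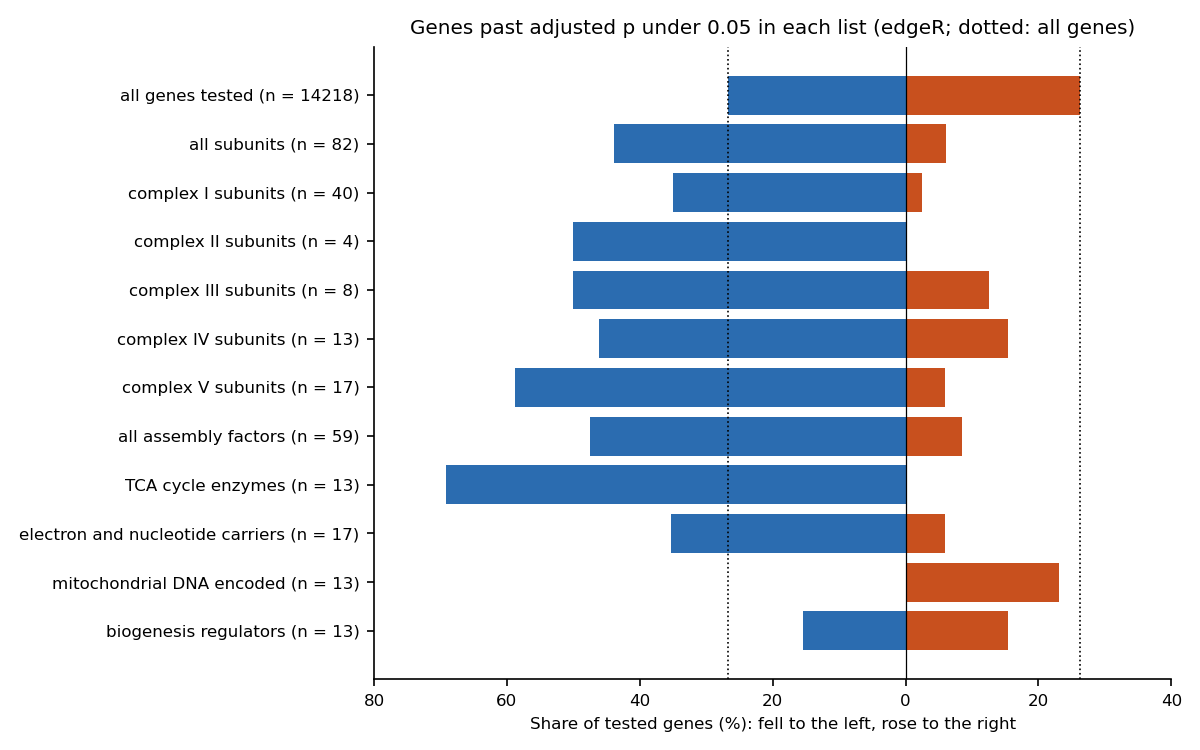
Share of tested genes that fell (left, blue) and rose (right, orange) at an edgeR adjusted p under 0.05 in the subunit groups and related lists; n is the number tested and dotted lines mark the shares of all genes. The subunits fell in 43.9% and rose in 6.10%, and the TCA cycle enzymes and assembly factors also lie left.

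Other properties of the subunit genes were described without a test. In GENCODE M39 the canonical transcripts of the 79 tested protein-coding subunit genes had a median 5′ UTR of 132 bases with 61.8% GC, against 229 bases and 65.0% over all tested coding genes. For the subunit genes that fell the median was 117 bases, for those that did not pass the test 132 and for the 5 that rose 201. For 23 subunit genes there were 42 pseudogene rows of at least 95% identity, and the reads in them exceeded 5% of the gene's own in 7 genes, at most 20.4% for Ndufa12. Of these 23 genes 10 fell and 1 rose, and of the 56 without such a row 25 fell and 4 rose. On the same strand Ndufb2, Ndufb8, Ndufb9 and Ndufa13 overlap another gene, whose reads could be split with theirs, and of these genes Ndufa13 fell, with 1881 reads on average in controls against 6.67 for the overlapping Yjefn3. In edgeR over 8 libraries, a difference of the genotype effect between sexes passed an adjusted p of 0.05 for 0 of 14211 genes and one between batches for 1, which was no subunit gene, so these fits say little about the subunits. At an unadjusted p under 0.05 it passed for 1 subunit gene between sexes and 0 between batches.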

How the data were processed

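Splenic B cell RNA was sequenced as paired 50-base reads from a directional library. Per the labels and the study's methods, the authors trimmed reads with Trim Galore 0.6.6, checked them with FastQC and mapped them to GRCm39 with HISAT2 2.1.0. The authors then used Seqmonk to count reads on each gene's merged mRNA isoforms, with regard to strand, and deposited these counts without normalization. The deposited TPM were calculated by the authors with StringTie 2.1.1 from the same alignments. How reads mapping to several places were counted is not given in the sources used here.

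Groups, sex, batch and replicate number came from the labels. Here counts were filtered with filterByExpr, normalized with TMM and tested with edgeR 4.0.16 (quasi-likelihood, R 4.3.3) on 6 libraries with batch and sex as covariates, which together equal the replicate number as a block. Tests are two-sided with Benjamini-Hochberg adjustment over all 14218 genes, and a gene "fell" or "rose" at an adjusted p under 0.05. Log2(TPM + 1) was tested with limma 3.58.1 for the 12976 genes averaging 1 TPM or more. Pairing rests on the batch and sex in the labels. Same-numbered libraries deviated together from their group means (Pearson r across genes 0.631, 0.540 and 0.469), other combinations at -0.479 to 0.026. Deviations from a group mean cancel out within a genotype, so high values for same-numbered libraries bring low ones for the others. The contrast is therefore partly built in. Per the study's methods the libraries of a genotype came from 4 mice. The scripts were tested on simulated data.

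The members and lists were chosen with earlier results of these data known. Named genes are Eif4a1, the largest changes and the highest and lowest control TPM of each complex, complex II, isoform pairs and up to 3 genes of each other list with the smallest adjusted p. Other genes were named after their values were seen, and 1 gene is counted but not reported by name here. Lists covered assembly factors, mitochondrial DNA encoded subunits, carriers, TCA cycle enzymes, regulators, proliferation genes and markers of B cells, fibroblasts, T cells and myeloid cells. Of 8 fibroblast, 2 T cell and 3 myeloid markers tested, 2, 1 and 0 fell and 2, 0 and 1 rose. Coordinates and UTRs came from GENCODE M39 (52647 genes matched by identifier), and promoters from RefSeq. Alternatives were DESeq2's size factors, upper-quartile scaling, no filter on low counts, DESeq2 1.42.0 with and without shrinkage, the fit without the replicate block, the use of all 8 libraries, the omission of each replicate, and for TPM a pseudocount of 0.1 and no filter. Interaction terms, the parts of complexes I and V and the set without pseudogene rows were added after the data had been seen.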

Additional observations from a re-analysis of the deposited data

Results flagged for a closer look

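Among 70 groups of 4 libraries examined, 3 held a library far from the others by Dixon's ratio of gap to range, and chance gives about 1 in 20, or 3.5. In controls, Atp5b was at 1965 TPM in control 2 and 1844 to 1862 in the other libraries (ratio 0.852), and all were below the 4A1 KO libraries. For Uqcrh, 4A1 KO 3 was at 205 TPM and the other 4A1 KO libraries at 218 to 220.5 (0.841). The low-level gene Ndufa4l2 was listed at 1.15 TPM in control 3 and 0.144 to 0.263 in the other controls (0.881), where the count table had 0 reads in all of them.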

How the results depend on the processing

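The median log2 fold change of the subunits was negative under every alternative, for all genes and for each complex. The complex III median of -0.15 became -0.13 with upper-quartile scaling and -0.13 with all 8 libraries, and lay between -0.16 and -0.12 when replicates were left out. The complex IV median of -0.114 became -0.0771 with all 8 libraries and lay between -0.174 and -0.0606 when replicates were left out. Leaving out a replicate, which keeps 4 libraries and 1 residual degree of freedom, gave 18 to 37 subunits that fell, 2 to 4 that rose, 3 to 6 decreased and 0 to 1 increased past the fold threshold, 7 to 14 that fell and 1 to 2 that rose in TPM, and 16 to 25 assembly factors that fell and 3 to 4 that rose.

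Without the replicate block 20 subunits fell, all among the 36, and 1 rose, 0 were increased past the fold threshold, 16 fell and 1 rose in TPM and 2 assembly factors rose. The 16 fallen subunits that missed the threshold without the block were Ndufc1, Cox7a2l, Sdhc, Cox6b1, Cox7a2, Ndufa5, Ndufs8, Uqcr10, Uqcrb, Atp5j2, Atp5h, Ndufv2, Cox8a, Ndufa2, Ndufa13 and Ndufb7, and of those that rose Atp5b, Uqcrq, Cox7c and Cox6b2 missed it. Of the 36, 18 missed it without replicate 2 (Ndufs6b, Ndufb6, Sdhc, Cox6b1, Uqcrh, Cox7a2, Ndufa5, Ndufs8, Uqcr10, Uqcrb, Atp5j2, Atp5h, Ndufv2, Cox8a, Uqcrfs1, Ndufa2, Ndufa13 and Ndufb7), 13 without replicate 3 (Ndufs6b, Ndufc1, Cox7a2, Ndufs8, Uqcrb, Atp5j2, Atp5h, Ndufv2, Cox8a, Uqcrfs1, Ndufa2, Ndufa13 and Ndufb7) and 2 without replicate 4 (Ndufa5 and Uqcrb). In TPM, those of the 36 that missed it were Sdhc, Cox7a2, Ndufs8, Uqcr10, Atp5j2, Ndufv2, Cox8a, Ndufa2 and Ndufa13. DESeq2 gave 2 subunits that rose with or without shrinkage, 0 increased past the fold threshold and 3 assembly factors that rose. No filter on low counts gave 3 and 0 for the subunits, and all 8 libraries 9 assembly factors that rose. All 8 libraries gave 39 subunits that fell, 35 of them among the 36. The cause was not tested.

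For 35 named subunit genes and 350 alternative values, 301 kept direction and call, 42 missed the threshold and 7 changed sign, all in genes that had not passed the test. These were Atp5g2 (-0.027 with 8 libraries, -0.056 to 0.136 when a replicate was left out), Cox7b (-0.138 to 0.010 when a replicate was left out), Ndufa11b (0.18 with 8 libraries, -0.122 to 0.024 when a replicate was left out) and Sdhb (0.000727 with 8 libraries). With 3 libraries per genotype an exact permutation test of one gene cannot go below p = 0.1, and genes with under 100 reads per library, such as Cox6a2, Cox6b2 and Ndufs6b, carry the widest errors.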
